A study of Homo sapiens with 43 samples.

Results

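LMAN1 is a mannose-binding lectin of the endoplasmic reticulum that rides in coated transport vesicles to the Golgi and back. Its transcript was examined together with those of 4 other cargo receptors, MCFD2, LMAN2, LMAN2L and SURF4. The 5 genes were taken by symbol, and all 5 had a row among the 25369 genes of the HCC1954 tables and the 18085 genes of the H2087 tables. LMAN1 was chosen by its measured values, the normalized counts near 0 in the derivatives of HCC1954, so its own difference between derivatives and parental cells of that line is given as a description without a test. The other receptors were picked for their role, and the question was whether any of them stood at a higher level in the cells that lacked LMAN1 transcript.

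As background, soluble glycoproteins leave the endoplasmic reticulum in vesicles with a COPII coat, and because they cannot touch the coat they need a receptor that spans the membrane. LMAN1, also called ERGIC-53, forms such a receptor with the calcium-binding protein MCFD2, and loss of either gene in people causes a combined deficiency of coagulation factors V and VIII. LMAN2 (VIP36) and LMAN2L (VIPL) are lectins of the same family, and SURF4 is a receptor of another family that carries soluble proteins without reading their sugars; its yeast relative is Erv29.

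HCC1954 is an established breast cancer cell line and H2087 an established lung cancer cell line. Per the labels, the latency-competent cell derivatives (LCC) were recovered from mouse organs that gave no bioluminescence signal. They were compared with the parental lines after 48 h of subconfluent growth in mitogen-low medium (MLM) or mitogen-rich medium (MRM). In HCC1954 each medium had 4 LCC libraries (2 of LCC1 and 2 of LCC2) and 3 parental libraries. In H2087 each medium had 6 LCC libraries, 1 per derivative (LCC1 to LCC6), and 2 parental libraries. The labels do not say whether libraries came from separate cultures, so p-values measure the spread between these libraries, and the 4 LCC libraries of HCC1954 stand for only 2 derivatives. In such bulk RNA, fewer cells with a transcript and less transcript per cell cannot be told apart.

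Values are the deposited normalized counts, which are reads divided by 1 size factor per library and are comparable within a line in both media. They are not divided by transcript length, so levels are compared between libraries and never between genes. Libraries held 24.9 to 44.7 M (mega) reads in HCC1954 and 12.1 to 55.7 M reads in H2087. Depth moved with medium: H2087 LCC libraries averaged 48.7 M reads in MLM and 18.1 M reads in MRM, and HCC1954 LCC libraries averaged 26.0 M reads in MLM and 34.4 M reads in MRM. Some libraries stood apart from their partners. The 2 LCC1 libraries of HCC1954 gave 115 in MRM and 3.64 in MLM for the chi-square of their reads over its degrees of freedom. Parental library 3 of HCC1954 in MLM differed from parental library 1 with a value of 62.9, where parental libraries 1 and 2 differed with 7.57. LCC5 and LCC6 of H2087 in MRM differed with only 6.93, where the other LCC pairs of that group gave 25.9 to 111. All 6 epithelial markers averaged over 10 in every group, but their summed level ran from 184608 to 193930 in HCC1954 LCC in MLM, against 356712 to 399663 in the parental libraries, and from 137501 to 226611 in LCC in MRM, against 330172 to 353498 in the parental libraries. Among these markers KRT19 went the other way. It averaged 2160 in HCC1954 LCC and 992 in parental cells in MLM, and 1837 and 997 in MRM. The 5 markers of the amplified ERBB2 region and basal keratin summed to 224074 or more in every HCC1954 library. Of 4 lung markers SFTPC stayed near 0 in H2087, while SFTPB, NAPSA and SFTA3 averaged over 10 in every H2087 group. In the HCC1954 groups NAPSA averaged 30.9 to 40.8, SFTA3 25.6 to 58.1 and SFTPB 7.61 to 15.7. An average over 10 therefore does not mark H2087 alone. Fibroblast markers summed to at most 1116 in any library, the blood list to at most 232 and the endothelial list to at most 1428. LUM and DCN were near 0, and COL1A1 held most of the fibroblast sum. In HCC1954 the fibroblast sum ran from 778 to 1116 in LCC and from 466 to 640 in parental libraries over both media. COL1A1 averaged 900 in HCC1954 LCC and 599 in parental cells in MLM, and 845 and 526 in MRM. PDGFRB averaged 15.2 in HCC1954 LCC and 0.432 in parental cells in MLM, and 12.4 and 0 in MRM. Every endothelial marker averaged over 10 in each HCC1954 group. The part of these markers in the results was not tested.

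The 250 bases before the annotated start of LMAN1 and of SURF4 are shown because LMAN1 is the gene whose transcript was nearly absent in HCC1954 LCC and SURF4 a receptor whose level differed between the derivatives. Both come from RefSeq on GRCh38.p14 and are written 5′ to 3′ on the strand of the gene, which is the minus strand, at chr18:59359266-59359515 and chr9:133376061-133376310. The SURF4 window precedes the only transcript start listed for it, which lies inside the gene span of the same build (chr9:133361464-133377949). Capitals mark the CCAAT box (CCAAT) and the GC box (GGGCGG), each read on both strands.
LMAN1: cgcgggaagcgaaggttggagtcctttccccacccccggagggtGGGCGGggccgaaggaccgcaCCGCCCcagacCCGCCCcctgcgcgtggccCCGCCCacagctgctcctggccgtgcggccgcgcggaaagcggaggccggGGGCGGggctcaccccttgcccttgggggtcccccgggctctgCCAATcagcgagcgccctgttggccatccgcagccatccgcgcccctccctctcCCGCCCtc
SURF4: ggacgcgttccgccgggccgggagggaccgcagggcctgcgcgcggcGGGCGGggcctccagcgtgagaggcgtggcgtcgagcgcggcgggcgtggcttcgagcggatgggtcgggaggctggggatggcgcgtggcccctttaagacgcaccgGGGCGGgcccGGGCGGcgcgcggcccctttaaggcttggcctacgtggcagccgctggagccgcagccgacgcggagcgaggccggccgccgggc
The LMAN1 window held 1 CCAAT box and 6 GC boxes with 76.8% G and C bases. The SURF4 window held no CCAAT box and 3 GC boxes with 79.6% G and C bases. Among 35116 such windows, 32.01% held a CCAAT box and 42.64% a GC box. Elements that answer stress of the endoplasmic reticulum were also searched on both strands: the element ERSE was in 0.07404% of all windows, ERSE-II in 0.05126% and the core TGACGTGG in 0.6123%, and none of the 7 windows of the 5 receptors held one of them. The ERSE contains a CCAAT box.

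LMAN1 transcript was almost undetected in HCC1954 LCC. In MLM it had 0 and 1.24 normalized counts in the LCC1 libraries and 0 in both LCC2 libraries, against 3064, 2709 and 2738 in the parental libraries. In MRM it had 6.16 and 0.781 in the LCC1 libraries and 2.62 and 2.03 in the LCC2 libraries, against 3522, 3590 and 3785 in the parental libraries. All 8 LCC libraries thus lay far below all 6 parental libraries.

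As reads, the 4 LCC libraries in MLM held 1 LMAN1 read among 104.1 M reads, against 6694 LMAN1 reads in the 3 parental libraries. This is 0.0101% of the parental level, with an exact 95% Poisson interval of 0.000256% to 0.0564%. In MRM they held 13 LMAN1 reads among 137.8 M reads, against 13645 in the parental libraries, which is 0.0732% of the parental level (0.0389% to 0.125%). The remnant was spread over both derivatives in MRM, with 7 reads in LCC1 and 6 in LCC2. In MLM the LCC2 libraries held none, and against a floor of 3 reads over the group their level was at least 1759-fold lower than in parental cells. The LCC remnant was 0.00961 RPM (0.000243 to 0.0535) in MLM and 0.0944 RPM (0.0502 to 0.161) in MRM. These intervals overlap only between 0.0502 and 0.0535, which is no test, and the difference of the remnant between media was not tested. The intervals cover counting error only. Among the 6624 genes with a parental mean of at least 1000 in MLM, LMAN1 kept the lowest share of its parental level. Only 3 of these genes were under 1% of theirs. Among 6379 such genes in MRM, LMAN1 ranked 2 from the lowest, and 3 were under 1%. LMAN1 was chosen by these values, so its rank is a description and lends no support.

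MCFD2, the partner that LMAN1 holds in the early secretory pathway, kept most of its level in these cells. In MLM it had 4059 and 4291 normalized counts in LCC1 and 3303 and 3281 in LCC2, against 4143, 3832 and 4154 in parental libraries. In MRM it had 4415 and 4980 in LCC1 and 3372 and 3354 in LCC2, against 4134, 4131 and 4227 in parental libraries. LCC2 lay below every parental library in both media, while LCC1 lay within or above their range. Over all LCC the log2 difference was -0.12 ± 0.12 (SE; 95% interval -0.40 to 0.15; limma adjusted p = 0.450) in MLM. It was -0.07 ± 0.15 (-0.43 to 0.29; adjusted p = 0.753) in MRM, where scaling to library totals turned it to 0.06. The MCFD2 locus overlaps TTC7A and the antisense gene MCFD2-AS1, and whether reads were counted by strand is not given in the sources used here.

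LMAN2, the lectin that cycles between the endoplasmic reticulum and the Golgi, also stayed near its parental level. In MLM it had 14789 and 14588 normalized counts in LCC1 and 14174 and 14954 in LCC2, against 16955, 16834 and 14659 in parental libraries. In MRM it had 11730 and 10045 in LCC1 and 11259 and 11223 in LCC2, against 10614, 10992 and 10045 in parental libraries. The groups overlapped in both media. The log2 difference was -0.14 ± 0.08 (-0.33 to 0.05; adjusted p = 0.227) in MLM and 0.07 ± 0.09 (-0.13 to 0.27; adjusted p = 0.574) in MRM.

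LMAN2L, its relative that stays in the endoplasmic reticulum, was the only one of the 4 that passed the test, and only in MRM. There it had 1672 and 1668 normalized counts in LCC1 and 1413 and 1437 in LCC2, against 1049, 1044 and 1011 in parental libraries, and the groups did not overlap. The difference was 0.58 ± 0.10 on the log2 scale, a 1.49-fold rise (0.35 to 0.80; adjusted p = 0.00329). In MLM it had 1385 and 1449 in LCC1 and 1539 and 1594 in LCC2, against 1555, 1549 and 1395 in parental libraries, with a difference of -0.01 ± 0.09 (-0.22 to 0.20; adjusted p = 0.955). The parental level itself was higher in MLM, and LCC differed between media by -0.05 ± 0.10 (adjusted p = 0.779). The test of the difference between the media gave -0.58 ± 0.13 and missed the threshold (adjusted p = 0.0901).

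SURF4, the receptor of soluble cargo, split by derivative. In MLM it had 21338 and 21456 normalized counts in LCC1 but 11776 and 12053 in LCC2, against 12504, 12575 and 12020 in parental libraries. In MRM it had 14566 and 13292 in LCC1 and 10316 and 10394 in LCC2, against 10526, 10292 and 9911 in parental libraries. All 4 LCC1 libraries lay above every parental library of their medium, and the LCC2 libraries lay within or just below the parental range. Pooled over derivatives the difference was 0.37 ± 0.25 (-0.21 to 0.94; adjusted p = 0.279) in MLM and 0.23 ± 0.14 (-0.10 to 0.56; adjusted p = 0.236) in MRM. Under scaling to library totals, which moved the median of all genes by 0.11 in MLM and 0.13 in MRM on the log2 scale, the MRM value became 0.36 and passed (adjusted p = 0.0341).

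So of the 4 receptors limma called 0 in MLM, as did edgeR and DESeq2, and 0 had an unadjusted p under 0.05, where 36.5% of 15186 genes were called. It called 1 in MRM, where 38.4% of 15432 were. Called higher were 17.6% of genes in MLM and 19.2% in MRM, and called lower 18.9% and 19.3%. The groups overlapped for all 4 in MLM, where those of 46.9% of genes did not, and for all but LMAN2L in MRM, where those of 51.6% did not. The plot of HCC1954 libraries shows the loss of LMAN1 beside the smaller spread of the others.

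**Figure D1:**
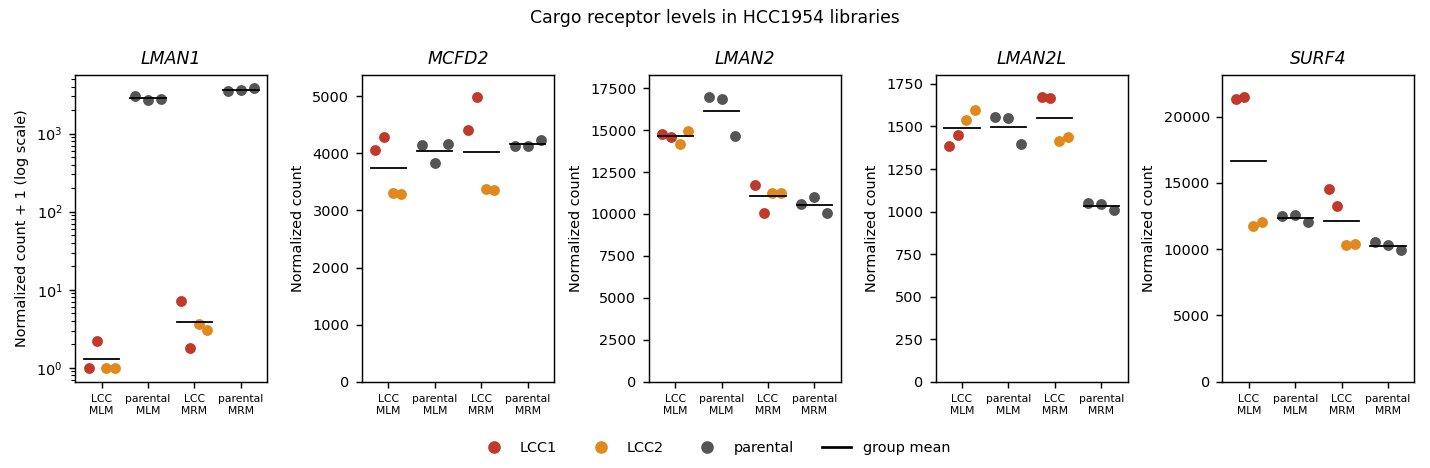
Normalized counts of the 5 receptors in each HCC1954 library, by cell type and medium; points are libraries coloured by derivative, lines are group means, and the LMAN1 panel shows the count plus 1 on a log axis. LMAN1 had at most 6.16 in LCC against at least 2709 in parental libraries, and SURF4 reached 21338 and 21456 in LCC1 in MLM.

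Because the labels name 2 derivatives, LCC2 was compared with LCC1 over both media, with medium as a term (4 libraries each). The 2 LCC1 libraries in MRM stood apart from each other, as given above. Repeat libraries stand for a single derivative on each side, so these p-values measure the spread between libraries only. MCFD2 was lower in LCC2 by a log2 difference of -0.41 ± 0.06 (adjusted p = 0.00147), and SURF4 was lower by -0.64 ± 0.09 (adjusted p = 0.00119). LMAN2 (0.02 ± 0.07, adjusted p = 0.836) and LMAN2L (-0.04 ± 0.08, adjusted p = 0.713) did not pass. This comparison called 45.8% of genes, and 23.4% as lower in LCC2, so 2 of 4 is near its background. Of 20 targets of the unfolded protein response 12 were lower in LCC2 and none higher, and of 20 genes of COPI and retrieval 9 were lower and 1 higher.

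Each derivative was then set against the same parental libraries, a comparison chosen after the values were seen. In LCC1, SURF4 was higher by 0.79 ± 0.06 in MLM (1.73-fold, adjusted p = 7.79e-05) and by 0.44 ± 0.06 in MRM (1.36-fold, adjusted p = 0.00146). In LCC2 it differed by -0.05 ± 0.06 (adjusted p = 0.468) and 0.02 ± 0.06 (adjusted p = 0.853). MCFD2 was lower in LCC2 by -0.30 ± 0.06 in MLM (adjusted p = 0.00732) and by -0.31 ± 0.07 in MRM (adjusted p = 0.00873), and in LCC1 it differed by 0.05 ± 0.06 (adjusted p = 0.562) and 0.17 ± 0.07 (adjusted p = 0.0700). LMAN2L was higher in MRM in LCC1 by 0.69 ± 0.06 (adjusted p = 1.79e-04) and in LCC2 by 0.46 ± 0.06 (adjusted p = 9.57e-04). LCC1 called 55.7% of genes in MLM and 55.1% in MRM, and LCC2 called 53.5% and 52%. Called higher were 27.1% of genes in MLM and 27.8% in MRM for LCC1, and 25.5% in both media for LCC2. Thus the receptors called higher in LCC1 were SURF4 in both media and LMAN2L in MRM. SURF4 alone of the 4 in LCC1 in MLM is near that share. In LCC2 no receptor was called higher in MLM, and only LMAN2L was in MRM.

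The genes beside LMAN1 on chromosome 18 were read in the same libraries. The 5 genes on each side, in the order of the GRCh38.p14 gene table, were ZNF532, SEC11C, GRP, RAX and CPLX4 before it and CCBE1, PMAIP1, MC4R, CDH20 and RNF152 after it. GRP and RAX had no normalized count in any HCC1954 library, and CPLX4, MC4R and CDH20 stayed below 4, so 5 neighbours could be followed. ZNF532, a zinc finger gene, averaged 2904 in LCC and 5683 in parental cells in MLM, a log2 difference of -0.98 (adjusted p = 0.00193), and it was lower by -0.91 in MRM (adjusted p = 0.00104). SEC11C, a subunit of the signal peptidase, averaged 1401 in LCC and 687 in parental cells in MLM (0.94, adjusted p = 0.0558) and was higher in MRM by 0.80 (adjusted p = 0.00674). CCBE1, on the other side, averaged 58.0 in LCC and 39.3 in parental cells in MLM (0.55, adjusted p = 0.0496), and PMAIP1, which encodes the cell death protein NOXA, averaged 1839 in LCC and 1277 in parental cells in MLM (0.49, adjusted p = 0.286). RNF152 averaged 61.9 in LCC and 90.8 in parental cells in MLM (-0.57, adjusted p = 0.128). In MRM none of these 3 passed: CCBE1 differed by 0.22 (adjusted p = 0.670), PMAIP1 by -0.13 (adjusted p = 0.705) and RNF152 by -0.21 (adjusted p = 0.6004). CCBE1 and PMAIP1 lay below parental cells in LCC2 in MRM, at -0.33 and -0.49, and above them in LCC1, at 0.77 and 0.24. The followed neighbours kept reads in every LCC library. Over both derivatives their differences lay between -0.98 and 0.94 in MLM and between -0.91 and 0.80 in MRM. For LCC1 alone they ran from -1.16 to 1.48 in MLM and from -0.97 to 0.77 in MRM. For LCC2 alone they ran from -0.82 to 0.47 in MLM and from -0.86 to 0.84 in MRM. So none of these neighbours shared the loss of LMAN1.

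**Figure D2:**
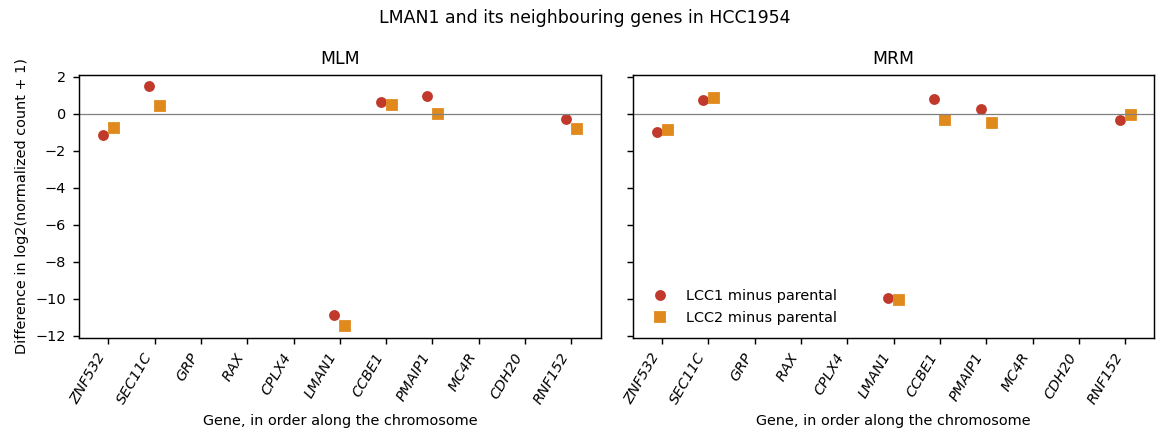
Difference of LCC1 (circles) and LCC2 (squares) from parental HCC1954 cells in log2(normalized count + 1) for LMAN1 and the 5 genes on each side, in chromosome order, in both media; genes with a mean under 10 have no point. LMAN1 stands alone near the bottom, and ZNF532 and SEC11C lie on either side of 0.

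The same was done for SURF4, whose neighbours are the surfeit genes and others of unlike function. This was looked at because SURF4 differed between derivatives. In LCC1 in MLM, SURF6 averaged 5437 (2.02 times the parental mean), SURF2 1204 (2.02 times), MED22 4239 (1.63 times) and REXO4 3963 (1.95 times). In LCC2 in MLM, SURF6 averaged 4195 (1.56 times), SURF2 1099 (1.84 times), MED22 3455 (1.33 times) and REXO4 3082 (1.52 times), while SURF4 was at 0.963 times. Over both derivatives 8 of 10 neighbours were called higher in MLM and 7 of 10 in MRM, and none lower, where 17.6% and 19.2% of all genes were called higher. CACFD1 and ADAMTSL2 were the exceptions in LCC1, at 0.701 and 0.679 times their parental means in MLM. Averaged over LCC1 and parental cells in MLM, only 9 neighbours reached 10, with log2 differences from -0.47 to 1.19. LCC1 therefore had SURF4 and most of its neighbours above parental cells, and LCC2 had most of the neighbours above but not SURF4.

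**Figure D3:**
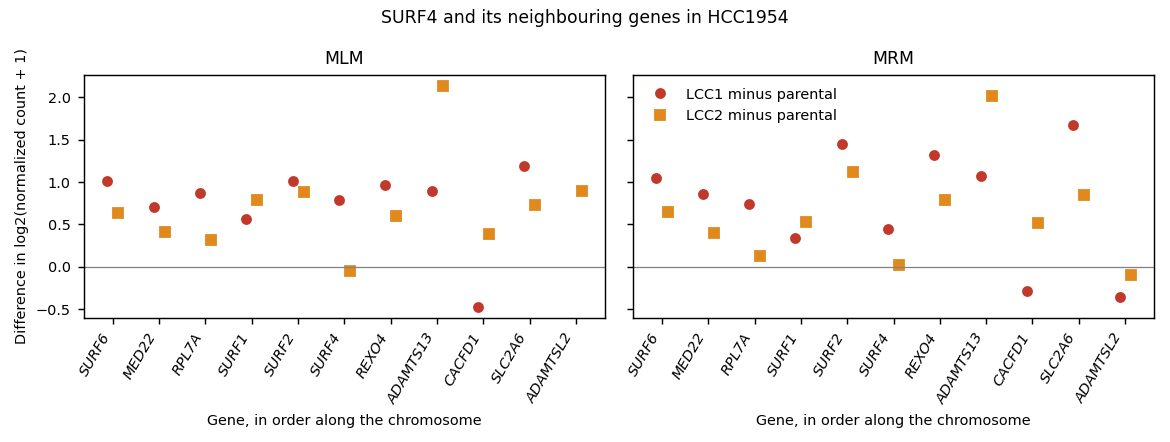
Difference of LCC1 (circles) and LCC2 (squares) from parental HCC1954 cells in log2(normalized count + 1) for SURF4 and the 5 genes on each side, in chromosome order, in both media; genes with a mean under 10 have no point. Most neighbours lie above 0 in both derivatives, while SURF4 lies at 0.79 in LCC1 and at -0.05 in LCC2 in MLM.

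Other genes of the early secretory pathway were counted in HCC1954 LCC beside all genes tested, of which 17.6% rose and 18.9% fell in MLM and 19.2% rose and 19.3% fell in MRM. In MLM the counts that fell among COPII coat and COPI genes were near that share, and that of the targets of the unfolded protein response was below it. Of 22 other receptors and adaptors that load COPII vesicles, 1 rose and 8 fell in MLM, and 3 rose and 8 fell in MRM, with median log2 differences of -0.24 and -0.21 where the medians of all genes were -0.00 in both. ERGIC1, a membrane protein of the intermediate compartment, fell by 0.66 in MLM (adjusted p = 0.00197), and TMED7, a p24 family receptor, fell by 0.65 (adjusted p = 0.00255). BCAP31, a sorting factor for membrane proteins, averaged 8115 in LCC and 11918 in parental cells in MLM (-0.57, adjusted p = 0.0148). YIF1A rose in MLM, by 0.56 (adjusted p = 0.00210), and in MRM ERGIC3, YIF1A and TMED3 rose.

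Of 16 COPII coat genes, 2 rose and 4 fell in MLM and 1 rose and 7 fell in MRM. The outer coat subunit SEC31A fell by 0.77 in MLM (adjusted p = 0.00114) and by 1.17 in MRM (adjusted p = 8.33e-05). SEC24D, an inner coat subunit that binds cargo, averaged 931 in LCC and 3392 in parental cells in MRM (-1.96, adjusted p = 0.00220). SEC23B, the inner coat subunit whose loss in people impairs erythroid cells, rose by 1.10 in MLM (adjusted p = 0.0214) and by 0.62 in MRM (adjusted p = 0.00201), while its relative SEC23A fell by 0.28 in MLM (adjusted p = 0.0412). Of 20 genes of the COPI coat and of retrieval, 4 fell in MLM, near the 18.9% of all genes that fell, and 12 fell in MRM, and none rose. KDELR1, which returns escaped residents to the endoplasmic reticulum, fell by 0.68 in MLM (adjusted p = 0.0113) and by 0.87 in MRM (adjusted p = 0.00103).

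Of 17 genes of glycoprotein folding and quality control, 1 rose and 6 fell in MLM and 2 rose and 9 fell in MRM. OS9, a lectin that hands misfolded glycoproteins to degradation, averaged 6101 in LCC and 13805 in parental cells in MLM (-1.17, adjusted p = 8.02e-04). CALR, the soluble lectin chaperone calreticulin, averaged 15064 in LCC and 24557 in parental cells in MRM (-0.71, adjusted p = 0.00235). EDEM2, which trims mannose from glycoproteins, rose by 1.49 in MLM (adjusted p = 0.00481) and by 1.00 in MRM (adjusted p = 0.00138). Of 20 targets of the unfolded protein response, 1 rose and 2 fell in MLM and 2 rose and 9 fell in MRM. XBP1, a transcription factor of that response, averaged 4403 in LCC and 14944 in parental cells in MRM (-1.79, adjusted p = 3.90e-04), and DDIT3 rose by 1.38 in MLM (adjusted p = 0.00947). HSPA5, the chaperone BiP, which was added after its values were seen, averaged 42144 in LCC and 20083 in parental cells in MLM (0.76 ± 0.56, adjusted p = 0.321) and 24439 in LCC and 24507 in parental cells in MRM (-0.02 ± 0.15, adjusted p = 0.922). Without parental library 3 in MLM no target of the response fell and 1 rose, and without the second LCC1 library in MRM 11 of the other receptors fell rather than 8. Scaled to library totals the counts in MLM became 4 up and 1 down for the targets of the response, 2 up and 2 down for the COPII coat, 2 up and 4 down for COPI and retrieval, and 2 up and 3 down for quality control. In MRM they became 5 up and 8 down for the other receptors and 3 up and 6 down for the targets of the response.

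Known cargo of LMAN1, alone or with MCFD2, moved in both directions at the transcript level. F8, coagulation factor VIII, averaged 126 normalized counts in LCC and 57.1 in parental cells in MLM (1.14 ± 0.17, adjusted p = 0.00204) and 119 in LCC and 35.8 in parental cells in MRM (1.69 ± 0.27, adjusted p = 0.00253). F5, coagulation factor V, averaged 25.9 in LCC and 19.1 in parental cells in MLM (adjusted p = 0.269) and 33.9 in LCC and 31.6 in parental cells in MRM (adjusted p = 0.840). MMP9, a secreted protease, averaged 101 in LCC and 24.5 in parental cells in MLM (1.96, adjusted p = 0.00180) and 127 in LCC and 9.50 in parental cells in MRM (3.54, adjusted p = 3.61e-04). CTSC, the lysosomal cathepsin C, averaged 5171 in LCC and 9819 in parental cells in MLM (-1.04, adjusted p = 0.0438) and 6013 in LCC and 12897 in parental cells in MRM (-1.15, adjusted p = 0.00536). CTSZ, cathepsin Z, averaged 11122 in LCC and 16079 in parental cells in MLM (-0.53, adjusted p = 0.00217). SERPINA1, alpha-1-antitrypsin, averaged 61.1 in LCC and 21.1 in parental cells in MRM (1.49, adjusted p = 0.00179). Of these 6 cargo genes, 2 rose and 2 fell in MLM, where 17.6% and 18.9% of all genes did, and 3 rose and 1 fell in MRM, where 19.2% and 19.3% did. Without parental library 3 in MLM, 1 cargo gene fell there. Among 4 tested cargo genes of SURF4, NUCB1, a calcium-binding protein of the Golgi, fell by 1.03 in MLM (adjusted p = 0.00713), SDF4 fell by 0.61 (adjusted p = 0.00760), and IGFBP4, which binds growth factors, rose by 0.85 (adjusted p = 0.0288). In MRM the same 3 genes were called in the same directions. Without parental library 3 the rise of IGFBP4 in MLM was lost, and scaled to library totals only 1 of the 4 fell in MRM.

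H2087 kept LMAN1 in all of its derivatives. In MLM the 6 LCC libraries ran from 3417 to 4415 normalized counts with a median of 4084, against 3683 and 3663 in the parental libraries, a log2 difference of 0.11 ± 0.10 (adjusted p = 0.483). In MRM they ran from 7044 to 9551 with a median of 8829, against 13118 and 11894 in parental libraries, and every LCC library lay below both parental libraries. The MRM difference was -0.57 ± 0.12, a level 0.675 times the parental one (95% interval on the log2 scale -0.85 to -0.28; adjusted p = 0.0199). With only 2 parental libraries, leaving out either one ended this call (adjusted p = 0.222 and 0.115).

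MCFD2 rose in H2087 LCC in MLM. The LCC libraries ran from 13359 to 16500 normalized counts with a median of 14591, against 10938 and 11067 in the parental libraries, without overlap. The difference was 0.42 ± 0.09, or 1.34-fold (adjusted p = 0.0218), and it too was lost without either parental library (adjusted p = 0.202 and 0.193). In MRM MCFD2 ran from 17736 to 21765 with a median of 21095, against 22155 and 20887 in parental libraries (-0.06 ± 0.10, adjusted p = 0.714).

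LMAN2 fell in H2087 LCC in MRM. The LCC libraries ran from 7653 to 12747 with a median of 9643, against 14383 and 14404 in parental libraries, again without overlap. The difference was -0.57 ± 0.16 (adjusted p = 0.0466). It was lost without LCC1, LCC5, LCC6 or either parental library (adjusted p = 0.0738 to 0.280). In MLM LMAN2 ran from 5082 to 7502 with a median of 5627, against 6131 and 6357 in parental libraries (-0.07 ± 0.15, adjusted p = 0.813).

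LMAN2L ran from 1601 to 2083 in LCC in MLM with a median of 1677, against 1492 and 1489 in parental libraries (0.21 ± 0.10, adjusted p = 0.223), and from 1875 to 3717 in MRM with a median of 2095, against 2266 and 2479 in parental libraries (-0.00 ± 0.24, adjusted p = 0.995). SURF4 ran from 6041 to 7519 in MLM with a median of 6845, against 5608 and 5870 in parental libraries (0.25 ± 0.09, adjusted p = 0.104; with DESeq2 adjusted p = 0.0387), and from 10665 to 14251 in MRM with a median of 12244, against 13537 and 12821 in parental libraries (-0.11 ± 0.11, adjusted p = 0.539). In MLM the LCC libraries of MCFD2, LMAN2L and SURF4 all lay above the parental ones, and in MRM those of LMAN1 and LMAN2 lay below, where the groups of 36.4% and 38% of genes did not overlap. By the test 1 of 5 receptors was called in MLM, where 13.7% of genes were called (4.94% higher and 8.77% lower), and 2 of 5 in MRM, where 14.6% were (8.76% higher and 5.83% lower). Of 20 targets of the unfolded protein response 4 rose in MLM and 3 fell in MRM, and of 22 other receptors 1 rose and 1 fell in MLM and 1 fell in MRM. In MLM 2 COPII coat genes rose and 2 fell, 4 COPI and retrieval genes rose, and 3 quality control genes rose and 1 fell. In MRM no COPII coat gene was called, and 2 COPI and retrieval genes and 4 quality control genes fell. Scaled to library totals, 6 targets of the response, 6 quality control genes, 4 other receptors, 3 COPI and retrieval genes and 1 COPII coat gene fell in MRM. On that scale 2 targets of the response and 2 COPI and retrieval genes rose in MLM, and 1 COPII coat gene rose and 3 fell. Of 3 tested cargo genes of SURF4, 1 fell in MRM and none was called in MLM. None of the 6 cargo genes of LMAN1, alone or with MCFD2, fell in either medium, and CTSZ rose by 0.79 in MLM (adjusted p = 0.0138).

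**Figure D4:**
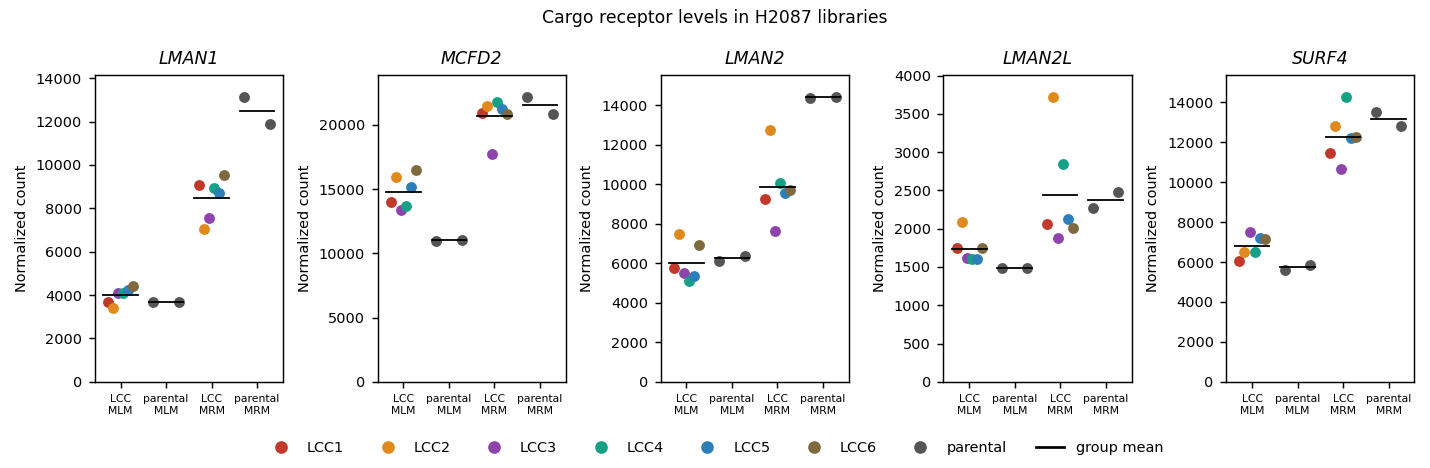
Normalized counts of the 5 receptors in each H2087 library, by cell type and medium, on linear axes from 0; points are libraries coloured by derivative and lines are group means. Levels in MLM lie below those in MRM in most panels, and LMAN1 in MRM runs from 7044 to 9551 in LCC against 11894 and 13118 in parental libraries.

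All 5 receptors differed between the media in H2087, in parental cells and in LCC. In parental cells LMAN1 had 3683 and 3663 normalized counts in MLM and 13118 and 11894 in MRM, a log2 difference of -1.77 ± 0.05 (0.294 times; adjusted p = 3.81e-07). LMAN2 differed by -1.21 ± 0.04 (adjusted p = 4.88e-07), SURF4 by -1.20 ± 0.05 (adjusted p = 7.79e-07), MCFD2 by -0.97 ± 0.05 (adjusted p = 1.63e-06) and LMAN2L by -0.67 ± 0.06 (adjusted p = 2.65e-05). All 5 were lower in MLM, where 34.4% of genes were called lower and 72.6% were called in all, and for all 5 the groups did not overlap, as for 87.3% of genes. In LCC the same 5 were lower in MLM, where 32.7% of genes were called and 16.7% were called lower. There LMAN1 differed by -1.09 ± 0.09 (adjusted p = 5.02e-06), SURF4 by -0.85 ± 0.08 (adjusted p = 1.06e-05), LMAN2 by -0.71 ± 0.12 (adjusted p = 9.68e-04), MCFD2 by -0.49 ± 0.07 (adjusted p = 2.92e-04) and LMAN2L by -0.46 ± 0.15 (adjusted p = 0.0371). LMAN2L in LCC was the least firm in this unpaired fit: its groups overlapped, where those of 16.1% of genes did not. Scaling to library totals ended its call (-0.36, adjusted p = 0.0756), as did leaving out any of 6 libraries (adjusted p = 0.0574 to 0.0745). These checks did not pair the libraries of a derivative. Within every derivative LMAN2L was lower in MLM than in MRM, such as 1743 against 2007 in LCC6 and 2083 against 3717 in LCC2.

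Stress and folding genes of the endoplasmic reticulum were lower in MLM beside them. Of 20 targets of the unfolded protein response, 19 were lower in MLM in parental cells and 18 in LCC, with 1 higher in each. All 17 genes of glycoprotein folding and quality control were lower in parental cells and 16 in LCC, and 19 of 21 other receptors were lower in parental cells and 16 of 22 in LCC. COPII coat genes did not share this, with 5 higher and 6 lower in parental cells and 2 higher and 0 lower in LCC. Scaled to library totals, 7 COPII coat genes were higher and 4 lower in parental cells and 7 higher and 0 lower in LCC. The following genes were chosen after their values were seen. HSPA5 averaged 23023 in MLM and 133702 in MRM in parental cells (-2.53, adjusted p = 4.42e-07) and 27006 in MLM and 86645 in MRM in LCC (-1.65, adjusted p = 1.86e-05). HSP90B1, the chaperone GRP94, averaged 24945 in MLM and 90128 in MRM in parental cells (-1.85, adjusted p = 4.23e-07) and 32726 in MLM and 68919 in MRM in LCC (-1.08, adjusted p = 4.75e-06). Without LCC6, which lay close to LCC5 in MRM, 16 of the targets of the response and 15 of the quality control genes were called lower in LCC. Depth differed between the media as given above, and its part was not tested.

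In HCC1954 the receptors differed between media in both directions. In parental cells LMAN1 had 3064, 2709 and 2738 in MLM and 3522, 3590 and 3785 in MRM (-0.36 ± 0.07, adjusted p = 0.00613), so it was lower in MLM there too. LMAN2 was higher in MLM by 0.61 ± 0.08 (adjusted p = 0.00125), LMAN2L by 0.53 ± 0.07 (adjusted p = 0.00130) and SURF4 by 0.27 ± 0.06 (adjusted p = 0.00787), while MCFD2 differed by -0.04 ± 0.06 (adjusted p = 0.563). This comparison called 46.4% of genes, 25.5% higher and 20.9% lower, and the groups of 60.5% of genes did not overlap. In LCC only LMAN2 passed, at 0.40 ± 0.08 (adjusted p = 0.0204), where 11.9% of genes were called, 6.36% higher and 5.52% lower. It was also the only one of the 4 whose LCC groups did not overlap, where those of 23.4% of genes did not. Its call was lost under scaling to library totals (0.32, adjusted p = 0.0660) and without any of 6 of the 8 libraries (adjusted p = 0.0530 to 0.0661). SURF4 in LCC differed by 0.41 ± 0.24 (adjusted p = 0.302); with libraries of the same name paired as a replicate block, which removes the split between derivatives, it passed (0.41, adjusted p = 0.0387). MCFD2 (-0.10 ± 0.16, adjusted p = 0.732) and LMAN2L (-0.05 ± 0.10, adjusted p = 0.779) did not pass, and LMAN1, with a mean under 10, was not tested. The lists moved both ways in parental cells, with 7 targets of the unfolded protein response higher in MLM and 4 lower, 7 other receptors higher and 5 lower, and 9 COPII coat genes lower and 1 higher. In LCC 3 targets of the response were higher and none lower, and 5 other receptors were higher and 3 lower. Scaled to library totals, 1 other receptor was higher in LCC and 3 were lower.

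**Figure D5:**
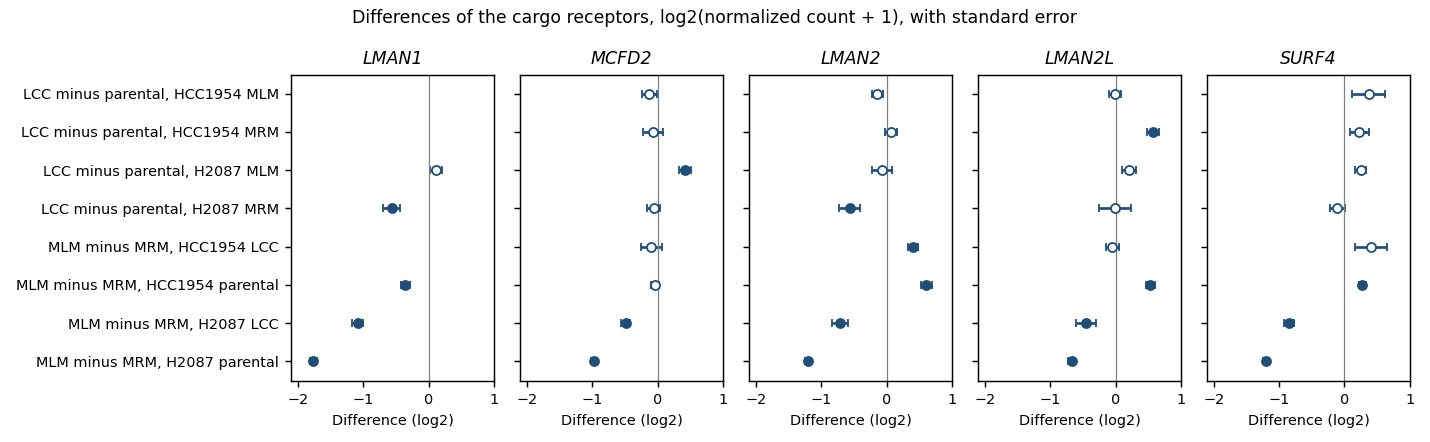
Log2 differences of each receptor in 8 comparisons, as LCC minus parental cells or MLM minus MRM, with bars for 1 standard error; filled points have a limma adjusted p under 0.05 and open points do not. LMAN1 has no point for LCC minus parental cells or for LCC between media in HCC1954, all 5 receptors lie below 0 for MLM minus MRM in H2087, and LMAN2 lies above 0 for MLM minus MRM in HCC1954.

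Whether the LCC difference itself depended on medium was tested as an interaction. In H2087, the signed value of LCC minus parental was higher in MLM than in MRM for 2 receptors. It was higher for LMAN1 by 0.68 ± 0.16 (adjusted p = 0.0147) and for MCFD2 by 0.48 ± 0.13 (adjusted p = 0.0305). This test called 10.7% of genes, 4.08% higher and 6.64% lower. The LMAN1 difference was 0.11 in MLM and -0.57 in MRM, and that of MCFD2 was 0.42 and -0.06. The LMAN1 call was lost without any of 3 of the 4 parental libraries (adjusted p = 0.0747 to 0.103), and that of MCFD2 without any of the 4 (adjusted p = 0.0742 to 0.154). LMAN2 gave 0.50 ± 0.23 (adjusted p = 0.179), and with the replicate block that pairs libraries of the same name it passed (adjusted p = 0.0226). SURF4 (0.35 ± 0.14, adjusted p = 0.121) and LMAN2L (0.21 ± 0.28, adjusted p = 0.685) did not pass. Of 20 targets of the unfolded protein response, 6 were called higher and none lower. In HCC1954, where 0.156% of genes were called (0.0649% higher and 0.0909% lower), limma called none of the 4 receptors, of which LMAN2L had an unadjusted p under 0.05, and no gene of the 7 lists.

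The LCC difference of HCC1954 was also set against that of H2087. In MLM it was lower in HCC1954 for MCFD2 by -0.54 ± 0.15 (adjusted p = 0.0143), and the other 3 receptors did not pass (adjusted p = 0.243 to 0.783), where 33.7% of genes were called (17% lower). In MRM it was higher in HCC1954 for LMAN2 by 0.63 ± 0.19 (adjusted p = 0.0181), and LMAN2L (0.58 ± 0.28, adjusted p = 0.122), SURF4 (0.34 ± 0.18, adjusted p = 0.170) and MCFD2 (-0.01 ± 0.19, adjusted p = 0.978) did not pass, where 34.3% were called (15.8% higher). Both calls were lost without either H2087 parental library of that medium (adjusted p = 0.0558 and 0.0619 for MCFD2, 0.0663 and 0.0664 for LMAN2).

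Genes with the pattern most like that of LMAN1 were ranked by the mean absolute difference, over libraries, of log2(value + 1) minus the parental mean of the same medium. In HCC1954, over 14 libraries and 15397 genes, those reported here were UGT1A10 (1.84), FZD10 (2.17), MXRA5 (2.23) and ZNF518B (2.35). ZNF518B had no normalized count in any LCC library against at least 79.0 in each parental one. In H2087, over 16 libraries and 12535 genes, they were QSOX2 (0.0591), GFM2 (0.0639), ATF6 (0.0668), MANEA (0.0749) and LETMD1 (0.0771). ATF6, the stress sensor of the endoplasmic reticulum, averaged 2765 in LCC and 2503 in parental cells in MLM and 5206 in LCC and 7266 in parental cells in MRM, and QSOX2, a secretory pathway oxidase, averaged 3149 in LCC and 2791 in parental cells in MLM and 6213 in LCC and 9526 in parental cells in MRM. These likenesses are a description of the libraries, which share depth and derivative.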

How the data were processed

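RNA of 2 cell lines and their derivatives was measured in 30 libraries with values. Of 43 samples in the labels, 31 are RNA and 12 are chromatin samples, which were not analysed here; H2087 parental library 3 in MLM has no column and was not used. Tools listed in the submitters' processing notes, without roles, include DESeq2 1.8.1, HTSeq 0.6.1p1 and Bowtie2 2.2.4, with the builds hg19 and GRCh37. The deposited signal is 1 normalized count per gene and library: within 0.01 reads, 100% of values were whole multiples of 1 step per library, so the authors divided read counts by a size factor. Size factors recomputed over both media of a line matched, so levels were compared between media within a line, never between lines.

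LCC were tested against parental libraries, MLM against MRM, and their interactions, with limma 3.58.1 (trended, two-sided, R 4.3.3) on log2(value + 1), so fold changes of low genes are understated. The fit kept genes averaging 10 or more, and calls needed a p under 0.05 after Benjamini-Hochberg adjustment. The size of a library and the number of its LMAN1 reads set the precision of low values, and Poisson intervals for read ratios are exact. edgeR 4.0.16 and DESeq2 1.42.0 on the recovered reads, pseudocount 10, no filter, scaling to library totals, leaving out each library and a replicate block were tried. Each derivative was set against parental libraries in a fit of 3 groups per medium. That fit and the list counts without libraries that stood apart or scaled to library totals were chosen after seeing the data. So were scaling or leaving out libraries in the comparisons of media and their interactions. The fits were checked on simulated data. The 5 receptors and 7 lists were chosen with earlier results of these data known, and list genes are named as up to 4 called members per list and direction with the largest change. Same-named LCC libraries of the 2 media come from the same derivative and deviated together (correlations 0.415 to 0.773 in H2087 and 0.534 to 0.758 in HCC1954), so they were paired in the block; parental numbers were not in HCC1954 (-0.0937 to 0.264). A gene among those most like LMAN1 in HCC1954 is not reported here.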

Additional observations from a re-analysis of the deposited data

Results flagged for a closer look

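Among 20 groups of 4 to 6 libraries examined, 3 had a library far from the others by the ratio of its gap to the range of the group, where about 1 in 20 is singled out by chance. LMAN1 in HCC1954 LCC in MLM had its only read in the second LCC1 library (ratio 1). A lone read gives this ratio whichever library holds it, so the chance rate does not apply to LMAN1 there. MCFD2 in H2087 LCC in MRM was lowest in LCC3, at 17736 (ratio 0.769). LMAN2L in H2087 LCC in MLM was highest in LCC2, at 2083 (ratio 0.696).

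Effects differed between conditions in 4 tests. In H2087 the signed LCC difference was higher in MLM than in MRM by 0.68 for LMAN1 and 0.48 for MCFD2. For LMAN1 it was 0.11 in MLM and -0.57 in MRM. The LCC difference was lower in HCC1954 than in H2087 for MCFD2 in MLM (-0.54) and higher for LMAN2 in MRM (0.63).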

How the results depend on the processing

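Under scaling to library totals, which moved the share of called genes that were higher in HCC1954 LCC to 61.4% in MLM and 64.0% in MRM (48.2% and 49.9% as deposited), LMAN2L in MLM became 0.107, MCFD2 in MRM 0.0589 and SURF4 in MRM 0.357. In H2087 that share became 22.7% in MLM and 40.7% in MRM (36.0% and 60.04% as deposited). With DESeq2 LMAN2L in HCC1954 MLM became 0.00448, LMAN2L in H2087 MRM 0.0403 (0.0372 with edgeR), SURF4 in H2087 MLM 0.24, now called, and the genes called in H2087 MLM 2911 rather than 1711. edgeR on the recovered reads called 5556 genes in HCC1954 MLM, 5962 in HCC1954 MRM, 1819 in H2087 MLM and 1690 in H2087 MRM. Without a filter LMAN2 in H2087 MRM (-0.57) missed the threshold. Each derivative was also set against parental libraries in a fit of 3 groups per medium. For LCC1 MCFD2 was 0.0468 in MLM and 0.17 in MRM, SURF4 0.79 and 0.44, and 8465 genes were called in MLM. For LCC2 MCFD2 was -0.30 and -0.31, LMAN2L 0.0643 in MLM and SURF4 -0.0535 in MLM.

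With the replicate block 3602 genes were called in HCC1954 MLM (5541 without) and 2310 in MRM (5932 without), and LMAN2L in MRM missed the threshold (0.56, adjusted p = 0.0570). LCC and parental libraries share only a number there, so this block carries no pairing.

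Leaving out 1 library gave, in HCC1954, 3660 to 5190 called genes in MLM and 3669 to 7431 in MRM, LMAN2L in MLM from -0.0592 to 0.0269 and MCFD2 in MRM from -0.177 to 0.0127. In H2087 it gave 113 to 2448 called genes in MLM and 141 to 2288 in MRM, MCFD2 in MLM from 0.39 to 0.45, LMAN1 in MRM from -0.64 to -0.50, LMAN2 in MRM from -0.64 to -0.50 and LMAN2L in MRM from -0.133 to 0.0639. Values near 0 that changed sign without 1 library were LMAN2 in LCC2 against LCC1 (-0.0322 to 0.0573), MCFD2 in MLM against MRM in HCC1954 LCC (-0.181 to 0.00946), the medium dependence in HCC1954 of MCFD2 (-0.137 to 0.0530) and SURF4 (-0.00249 to 0.286), and the line difference of MCFD2 in MRM (-0.117 to 0.0733) and SURF4 in MLM (-0.0192 to 0.269). The causes were not tested. LMAN1 in HCC1954 LCC stayed between 0 and 0.0141% of the parental level in MLM and between 0.0492% and 0.0915% in MRM. Depth limits the remnant of LMAN1, since 1 and 13 reads carry it.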
